A study of Mus musculus with 32 samples.

Results

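The 10 genes described here form the transforming growth factor beta (TGF-β) axis of a tendon assembloid: the ligands Tgfb1, Tgfb2 and Tgfb3, the related activin subunit Inhba, the receptors Tgfbr1, Tgfbr2 and Tgfbr3, the latency proteins Ltbp1 and Ltbp2, and the induced matrix protein Tgfbi. They were chosen by gene symbol, with earlier results of these data known, and are 10 of the 25700 genes in the count tables. Each symbol matched a single Ensembl identifier, and all 10 passed the filter on low counts in every comparison, the smallest estimated count of any of them in any library being 348.

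TGF-β ligands are secreted as dimers that stay wrapped in their own propeptide, and latent TGF-β binding proteins tie this inactive complex to the matrix until integrins, proteases or thrombospondin release it. The freed ligand joins the type II and type I receptors, which phosphorylate SMAD proteins, while betaglycan presents ligand to them. In tendon the pathway is known for tenocyte recruitment in the embryo and for matrix synthesis and scarring after injury, and activin A, the dimer of the Inhba product, signals through its own receptors to the same SMADs.

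Bulk RNA-seq was available for 32 libraries of an assembloid in which tail tendon fascicles of mice, the core, were held inside a collagen-1 hydrogel for 7 days in medium with serum, ascorbic acid and macrophage colony-stimulating factor. Cores came from the mouse line B6.129S2-Il6tm1Kopf/J and were labelled either as knock-out for interleukin-6 (Il-6-/-, KO) or as wildtype (Il-6+/+, WT), from animals of 12 to 15 weeks and both sexes. The 5 core groups, of 4 libraries each, were cores labelled KO // fibroblasts, WT core // macrophages, WT core // fibroblasts, cores labelled KO // cell-free and WT core // cell-free, where the name after the strokes says what the hydrogel held. The 2 hydrogel groups, of 6 libraries each, hold the hydrogel compartment of the fibroblast assembloids around cores labelled KO and around WT cores, and their seeded cells were wildtype Achilles tendon cells, termed progenitors in the sample labels and fibroblasts by the study, in both. A core library pooled 20 to 24 explants of 2 cm from a single mouse. The study also reports seeded fibroblasts in the core, so a core library beside fibroblasts may hold some of them. A hydrogel library pooled 2 hydrogels and is a mixture of seeded fibroblasts, pooled from 6 mice, and of cells that migrated out of the core, so a level there belongs to no one cell type. RNA with an integrity number as low as 2 was accepted by the study.

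Library totals ranged from 20360289 estimated counts (WT core // macrophages, replicate 4) to 59860703 (hydrogel around WT cores, replicate 4). Levels are given in CPM, which divides each count by its library size (TMM scaled over all 32 libraries) so that libraries of unequal depth can be compared. Il6, the targeted gene, was counted in every library and its mean was not lower where the label says KO. Its levels were 10.3, 15.3, 17.0 and 37.2 CPM in cores labelled KO // fibroblasts, against 6.15, 11.8, 4.98 and 9.34 CPM in WT core // fibroblasts (log2 fold change 1.30 ± 0.39 SE, edgeR adjusted p = 0.480). By the rule of the study for comparisons labelled KO over WT with fibroblasts, an unadjusted p under 0.05 and a log2 fold change beyond 0.5, Il6 was called higher in these cores and in the hydrogels around cores labelled KO (log2 fold change 1.03 ± 0.44), and in neither after adjustment. Gene counts do not show which exons the reads came from, so they cannot show whether a functional transcript was made, and the groups are called by their labels throughout. The summed level of 14 macrophage and leukocyte markers, all 14 of them above 1 CPM on average in each group, was 5594 to 12893 CPM in WT core // macrophages, 9517 to 10212 CPM in WT core // fibroblasts and 10139 to 14054 CPM in WT core // cell-free, so the sums overlapped. Of the single markers, Itgam and Cd14 were called lower in WT core // macrophages than in either other group, and Csf1r was called higher than in WT core // fibroblasts. The summed level of the 14 markers ran from 2348 CPM (replicate 5) to 33715 CPM (replicate 1) in hydrogels around cores labelled KO, against 10349 to 19231 CPM around WT cores. This sum reached 19529 CPM in replicate 1 of cores labelled KO // cell-free. The 9 tendon markers, none of which averaged below 1 CPM in any group, summed to 16027 to 65213 CPM in hydrogels around cores labelled KO, against 21494 to 48570 CPM around WT cores. In bulk RNA, fewer cells of a type and less RNA per cell cannot be told apart.

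The start regions of 4 genes called between the compartments are shown because they hold different letter matches. They were chosen after their values were seen, among the genes with an entry for this region, so that Tgfbr3 is not shown. The sequences are the 200 bases before the annotated start, from RefSeq on GRCm38.p6, and 8 of the 10 genes had an entry (all but Tgfb3 and Tgfbr3). Capitals mark matches to the letters of the TATA box (TATAAA, both strands searched) in Inhba and Tgfb2. In Tgfb1 and Tgfbr1 they mark matches to the GC box (GGGCGG, both strands, so also CCGCCC). The windows are chr13:16011651-16011850 on the plus strand for Inhba, chr1:186705990-186706189 on the minus strand for Tgfb2, chr7:25686802-25687001 on the plus strand for Tgfb1 and chr4:47353022-47353221 on the plus strand for Tgfbr1.
Inhba: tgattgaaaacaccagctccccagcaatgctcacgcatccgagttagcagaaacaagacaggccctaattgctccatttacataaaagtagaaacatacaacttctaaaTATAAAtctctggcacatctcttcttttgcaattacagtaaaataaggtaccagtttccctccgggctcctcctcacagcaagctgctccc
Tgfb2: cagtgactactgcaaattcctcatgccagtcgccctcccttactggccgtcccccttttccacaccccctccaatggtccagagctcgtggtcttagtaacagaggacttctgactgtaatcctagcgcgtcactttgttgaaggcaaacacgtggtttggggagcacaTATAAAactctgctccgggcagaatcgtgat
Tgfb1: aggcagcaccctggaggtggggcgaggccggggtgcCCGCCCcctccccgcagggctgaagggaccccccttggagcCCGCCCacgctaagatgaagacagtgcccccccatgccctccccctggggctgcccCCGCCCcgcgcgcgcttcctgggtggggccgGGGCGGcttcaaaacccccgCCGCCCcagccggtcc
Tgfbr1: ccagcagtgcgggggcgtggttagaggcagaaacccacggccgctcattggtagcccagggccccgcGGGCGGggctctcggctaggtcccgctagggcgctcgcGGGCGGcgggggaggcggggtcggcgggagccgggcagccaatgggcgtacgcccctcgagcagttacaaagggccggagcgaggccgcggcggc
The TATAAA match lay 91 bases before the start in Inhba and 31 bases before it in Tgfb2. Tgfb1 held 5 GC boxes between 16 and 164 bases before the start, and Tgfbr1 held 2, at 95 and 133 bases. Of 32851 mouse promoter windows of this length, 9.96% held a TATAAA and 31% a GGGCGG, against 2 and 4 of the 8 genes with an entry, counted at the first listed start of each. The CAGAC of the SMAD box was found in 4 of the 8, against 35.5% of all windows, TGANTCA of AP-1 in 0 of the 8, against 5.48%, CACGTG in 1, against 5.26%, and TGACGTCA in 1, against 1.47%. These are letter matches in a short window, and no binding was measured.

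All 10 genes were expressed in every library, with Inhba the most variable of them. Its mean was 138 ± 27.1 CPM (SD, n = 6) in hydrogels around cores labelled KO, the highest of the 7 groups, against 20.3 ± 3.48 CPM (SD, n = 4) in cores labelled KO // cell-free, the lowest, a ratio of 6.78. The same ratio of highest to lowest group was 2.72 for Tgfbi, 2.62 for Tgfb2, 2.50 for Tgfbr3, 2.38 for Tgfb1, 2.16 for Ltbp2, 1.76 for Tgfbr1, 1.56 for Tgfbr2, 1.40 for Ltbp1 and 1.20 for Tgfb3. With the 7 groups in order of level, neighbouring groups overlapped in 4 of 6 steps for Inhba, in 5 of 6 for Tgfb1 and Tgfbr3, and in 6 of 6 for the other 7 genes.

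**Figure D1:**
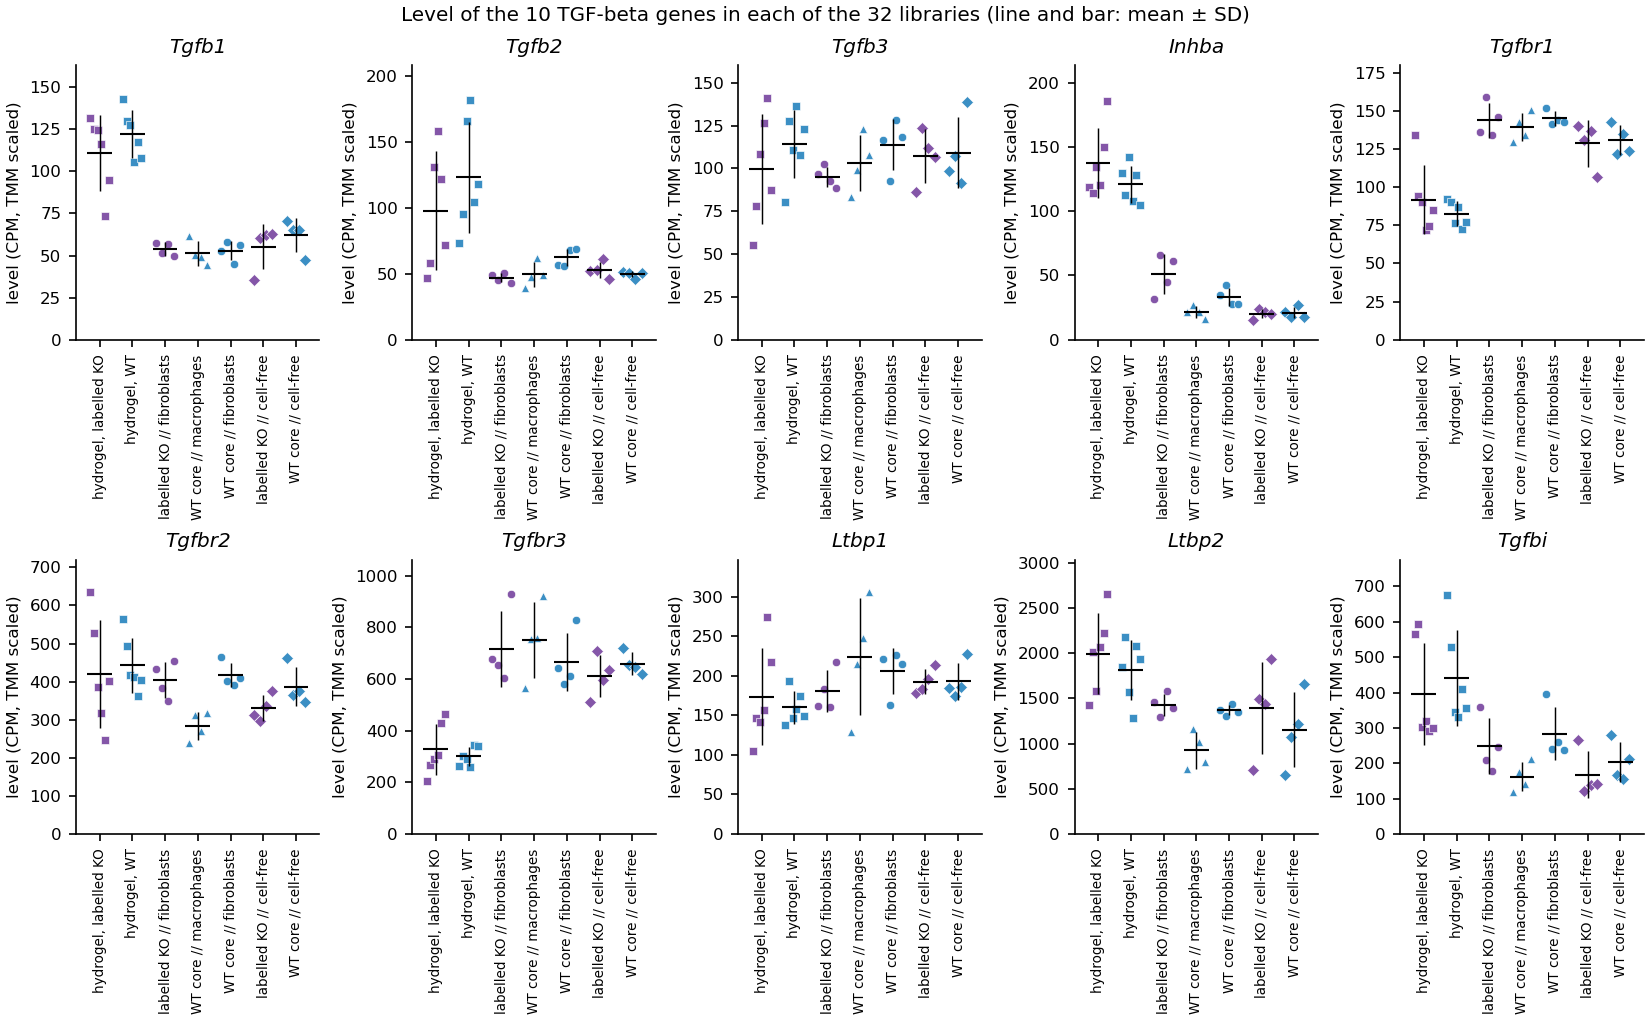
Level of each of the 10 genes in each of the 32 libraries (CPM, TMM scaled; points are libraries, lines and bars are group mean ± SD), by group, with hydrogels left and cores right. The 12 hydrogel libraries sit at 105 to 186 CPM for Inhba, above all 20 core libraries, and at 206 to 463 CPM for Tgfbr3, below all of them.

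Compared per length of transcript, which is needed to set genes against each other, Ltbp2 had the highest mean of the 10 in all 7 groups, although it was above Tgfbr3 in only 3 of 4 libraries of WT core // macrophages and of WT core // cell-free. In hydrogels around WT cores it had 268 CPM per kilobase, followed by Tgfbi at 163, Tgfb1 at 56.1, Tgfbr2 at 54.7 and Tgfbr3 at 49.3 CPM per kilobase. There Tgfb1 and Tgfbr2 overlapped between libraries, as did Tgfbr2 and Tgfbr3, whereas Tgfbi and Tgfb1 did not. In WT core // fibroblasts the order was Ltbp2 at 202, Tgfbr3 at 109, Tgfbi at 104 and Tgfbr2 at 51.6 CPM per kilobase, with Tgfbr3 and Tgfbi overlapping. Among the ligands Tgfb1 led in these hydrogels, before Tgfb3 at 33.8, Tgfb2 at 24.04 and Inhba at 18.9 CPM per kilobase, while in WT core // fibroblasts Tgfb3 led at 33.7 CPM per kilobase, before Tgfb1 at 24.3, Tgfb2 at 12.2 and Inhba at 5.19 CPM per kilobase.

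**Figure D2:**
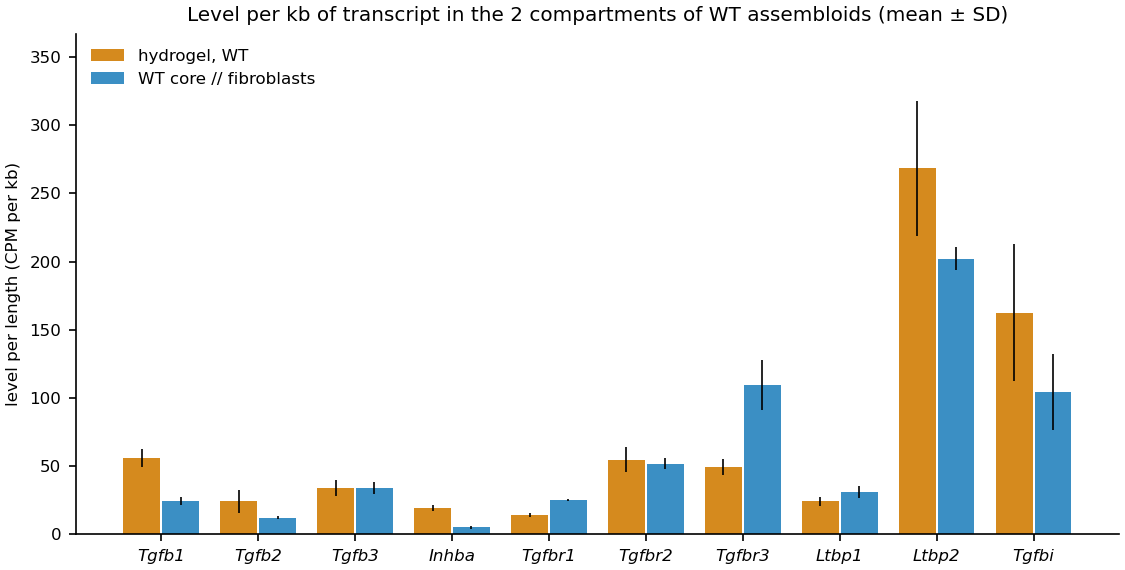
Mean level per kilobase of the longest coding transcript (CPM per kilobase; bars are means, error bars SD over libraries) of the 10 genes in hydrogels around WT cores (n = 6) and in WT core // fibroblasts (n = 4). Ltbp2 is highest in both compartments, at 268 and 202 CPM per kilobase, and Inhba is at 18.9 CPM per kilobase in the hydrogel, against 5.19 in the core.

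The largest differences lay between the compartments of an assembloid. In WT assembloids, Tgfb1, Tgfb2, Inhba and Tgfbi were higher in the hydrogel than in the core it surrounded, and Tgfbr1 and Tgfbr3 were lower. These are 6 of 10 genes called, at an edgeR adjusted p under 0.05 and a log2 fold change beyond 0.5, where 42.8% of the 16037 genes tested were called (18.1% higher and 24.7% lower), so the share in the set is read against a comparison in which a large part of the transcriptome differed. In 5 of the 10 the groups did not overlap, against 56.4% of all genes tested. In this comparison 8 of the 14 macrophage and leukocyte markers were called higher and 6 of the 9 tendon markers lower, while 3 of the 4 Schwann cell markers tested and 2 of the 5 smooth muscle and pericyte markers were higher. The part of these cell types in the results below was not tested.

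Among the ligands, Inhba showed the greatest difference. It had 105 CPM at the lowest, 120.4 at the median and 142 at the highest in hydrogels around WT cores, against 34.6, 42.3, 27.9 and 28.0 CPM in WT core // fibroblasts, a log2 fold change of 1.81 ± 0.13 (SE; edgeR adjusted p = 7.89e-07; exact permutation p = 0.00476, the smallest that 6 against 4 can give). Every hydrogel was above every core. Tgfb1, the ligand most studied in wound repair, had 106, 123 and 143 CPM (lowest, median and highest) in the hydrogels, against 52.6, 58.2, 44.9 and 56.1 CPM in the cores (log2 fold change 1.15 ± 0.10, edgeR adjusted p = 2.18e-06), again without overlap. Tgfb2 had 73.4, 111 and 182 CPM in the hydrogels, against 56.9, 56.0, 67.9 and 68.4 CPM in the cores (log2 fold change 0.93 ± 0.23, edgeR adjusted p = 0.00304), and its lowest hydrogel lay just above its highest core. Tgfb3, which with Tgfb2 is known from tendon formation in the mouse embryo, did not pass the test: its levels were 80.3, 117 and 136 CPM in the hydrogels, against 116, 92.5, 128 and 118 CPM in the cores, with a log2 fold change of -0.05 and a 95% interval from -0.31 to 0.21.

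Of the receptors, 2 were lower in the hydrogel. Tgfbr1, the type I receptor kinase, had 72.8, 81.9 and 92.0 CPM (lowest, median and highest) in hydrogels around WT cores, against 152, 142, 144 and 143 CPM in WT core // fibroblasts (log2 fold change -0.87 ± 0.07, edgeR adjusted p = 1.28e-06). Tgfbr3, the co-receptor betaglycan, had 261, 295 and 345 CPM in the hydrogels, against 643, 579, 610.2 and 828 CPM in the cores (log2 fold change -1.20 ± 0.12, edgeR adjusted p = 5.14e-06). Neither gene overlapped between compartments. Tgfbr2, the type II receptor that binds the ligand first, had 363, 415 and 563 CPM in the hydrogels and 464, 403, 392 and 410.2 CPM in the cores, a log2 fold change of 0.03 with a 95% interval from -0.19 to 0.25.

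The latency proteins differed less. Ltbp1, which anchors the latent complex in the matrix, had 138, 154 and 193 CPM in hydrogels around WT cores, against 221, 163, 226 and 215 CPM in WT core // fibroblasts, and Ltbp2, a binding protein of elastic fibres that is known not to bind latent TGF-β, had 1285, 1893 and 2179 CPM, against 1377, 1307, 1441 and 1348 CPM. Both passed on edgeR adjusted p (0.00554 and 0.0387) but not on size, at log2 fold changes of -0.42 ± 0.11 and 0.36 ± 0.14, and replicate 2 of the cores set the overlap of Ltbp1: without it the log2 fold change was -0.50 and Ltbp1 was called. Tgfbi, a matrix protein named for its induction by TGF-β, had 332, 383 and 677 CPM in the hydrogels, against 395, 240.5, 261 and 236 CPM in the cores (log2 fold change 0.58 ± 0.22, edgeR adjusted p = 0.0331), with overlap between the compartments. The migrated cells of a hydrogel come from the same mouse as its core, by the study's methods. With the 4 hydrogels and cores that share a code and number in their titles as such pairs, a reading the labels do not spell out, the log2 fold change of Tgfbi with the pairs as a block was 0.42 (edgeR adjusted p = 0.000215), under the limit on size. The call also ended without replicate 1 or 2 of the hydrogels or without replicate 2, 3 or 4 of the cores, at log2 fold changes of 0.42 to 0.55.

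In assembloids with cores labelled KO, 5 of 10 genes were called, where 41.6% of the 16084 genes tested were called (17% higher and 24.6% lower), and they were 5 of the 6 called in WT assembloids. Here 0 of the 14 macrophage and leukocyte markers were called, although all 14 had positive values with a median log2 fold change of 0.55, against a median of 0.52 in WT assembloids. Called lower were 3 of the 9 tendon markers, and called higher were 3 of the 4 Schwann cell markers tested and 2 of the 5 smooth muscle and pericyte markers, and their part in the differences was not tested. Inhba had 114, 128 and 186 CPM (lowest, median and highest) in hydrogels around cores labelled KO, against 31.5, 65.7, 45.0 and 61.7 CPM in cores labelled KO // fibroblasts (log2 fold change 1.36 ± 0.21, edgeR adjusted p = 0.000379). Tgfb1 had 73.5, 120.4 and 132 CPM, against 57.4, 51.3, 57.0 and 49.6 CPM (log2 fold change 0.98 ± 0.17, edgeR adjusted p = 0.000625). Both were without overlap, as was Tgfbr3, against 44.8% of all genes tested. Tgfb2 had 46.9, 96.7 and 158 CPM in the hydrogels, against 49.2, 44.9, 50.7 and 43.0 CPM in the cores (log2 fold change 0.99 ± 0.33, edgeR adjusted p = 0.0246), with replicate 1 of the hydrogels among the cores, and the call ended without replicate 1, 2 or 4 of the cores (edgeR adjusted p = 0.0512 to 0.0590).

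The receptors showed the same pair lower. Tgfbr3 had 206, 299 and 463 CPM in hydrogels around cores labelled KO, against 676, 656, 603 and 929.6 CPM in cores labelled KO // fibroblasts (log2 fold change -1.20 ± 0.22, edgeR adjusted p = 0.000943), without overlap. Tgfbr1 had 72.2, 87.7 and 134 CPM, against 136, 159, 134 and 146 CPM (log2 fold change -0.72 ± 0.16, edgeR adjusted p = 0.00333), where the highest hydrogel, replicate 1, reached the lowest core. Tgfbi had 293, 311 and 595 CPM, against 360.2, 210.5, 178 and 246 CPM, and did not pass (log2 fold change 0.60 ± 0.29, edgeR adjusted p = 0.0960), but with the 4 pairs by title as a block it did (0.55, edgeR adjusted p = 0.00169), as it did without replicate 1 of the cores (0.84, edgeR adjusted p = 0.0365). Ltbp2 did not pass (log2 fold change 0.41 ± 0.18, edgeR adjusted p = 0.0730), and without replicate 1 of the hydrogels it did (0.54, edgeR adjusted p = 0.0206). Tgfb3, Tgfbr2 and Ltbp1 were between -0.13 and -0.01 on the log2 scale and did not pass. With replicates 1 and 5 of these hydrogels left out, the libraries with the highest and lowest macrophage marker sum, the log2 fold changes were 1.40 for Inhba, 1.05 for Tgfb1, 1.11 for Tgfb2, -0.80 for Tgfbr1 and -1.15 for Tgfbr3, and all 5 were called.

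Whether the compartment difference itself differed between assembloids with cores labelled KO and with WT cores was tested as an interaction, and 0 of 10 genes passed at an edgeR adjusted p under 0.05, as did 0% of the 16603 genes tested. None of the 10 was under 0.05 before adjustment either. The lowest p of them was that of Inhba, with a difference of log2 fold changes of -0.42 ± 0.26.

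**Figure D3:**
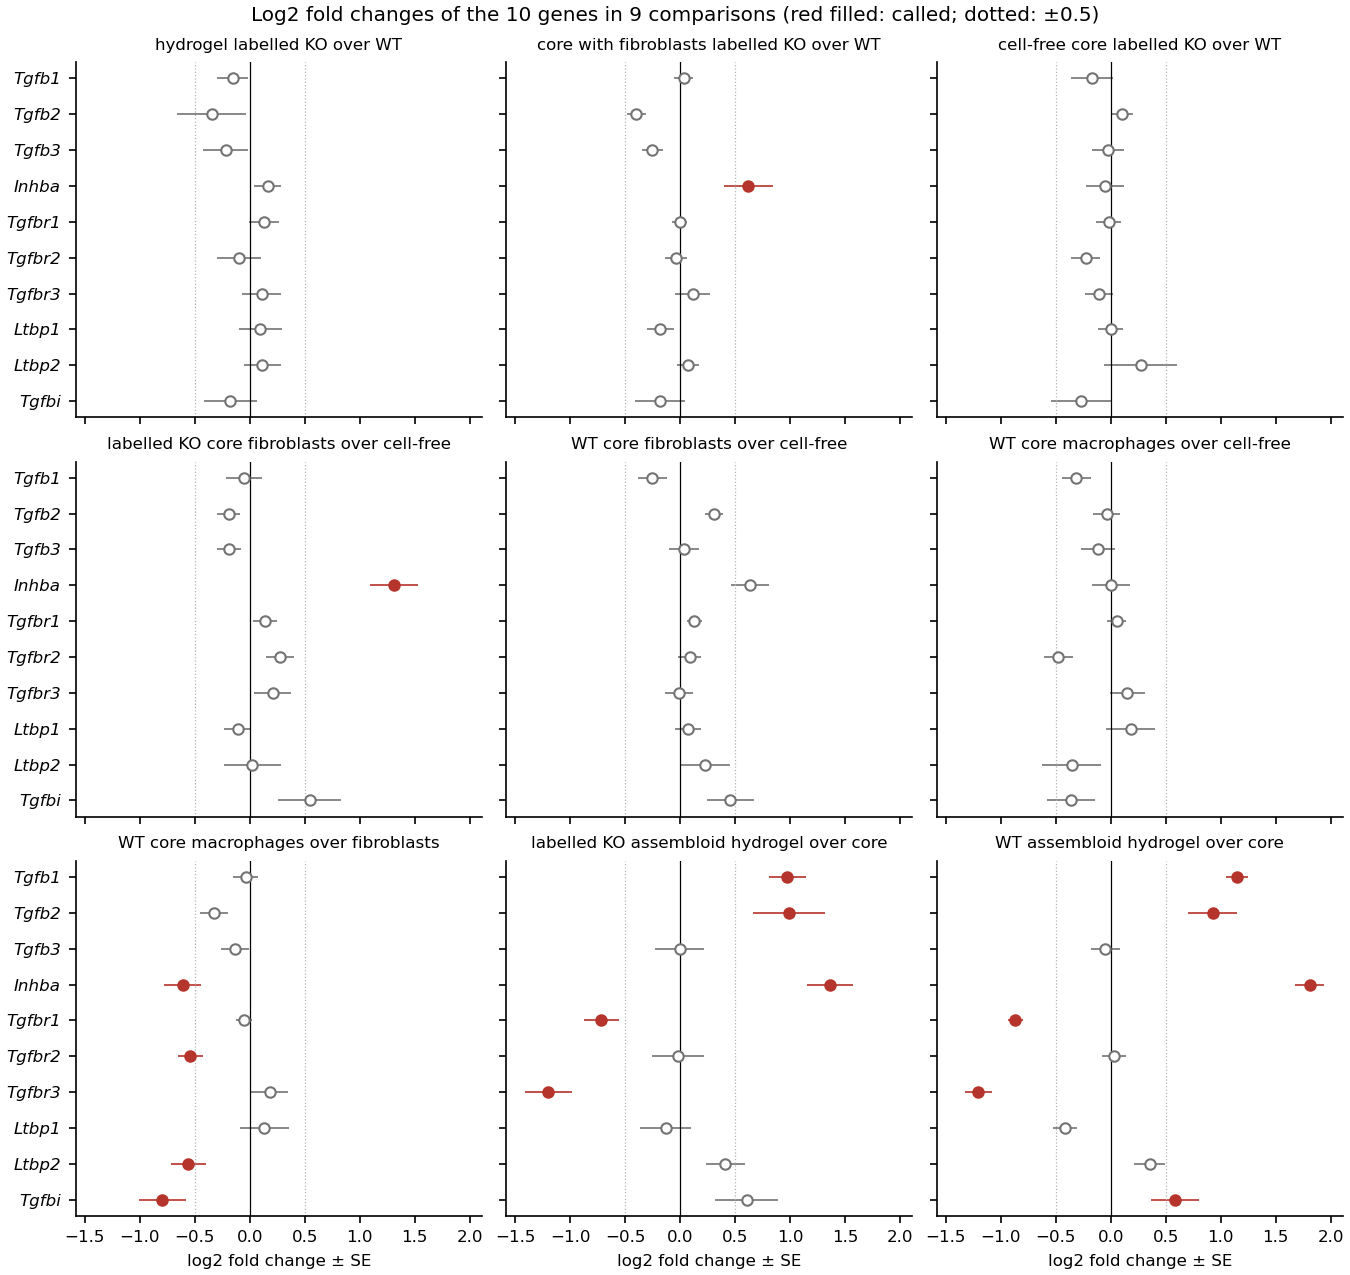
Log2 fold change of each of the 10 genes in the 9 comparisons of 2 groups (points; bars are ± SE from edgeR; red filled points were called, dotted lines mark 0.5 in either direction). The called genes gather in the panels of hydrogel over core, with Inhba at 1.81 and Tgfbr3 at -1.20 in WT assembloids, and the panel of hydrogels around cores labelled KO over WT has none.

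Fibroblasts in the hydrogel went with a higher level of Inhba in cores labelled KO. Inhba had 31.5, 65.7, 45.0 and 61.7 CPM beside fibroblasts, against 15.7, 23.9, 21.7 and 19.8 CPM cell-free, a log2 fold change of 1.31 ± 0.22 (edgeR adjusted p = 0.0382), or 2.48-fold, and every core beside fibroblasts was above every cell-free core. It was the 1 of 10 genes called, where 0.432% of the 15965 genes tested were called, and the 1 of 10 without overlap, against 6.58% of all genes tested. The call ended without replicate 1, 3 or 4 of the cell-free cores or without replicate 2 or 4 of the cores beside fibroblasts, at log2 fold changes of 1.17 to 1.34 and edgeR adjusted p of 0.0772 to 0.124. The summed macrophage and leukocyte markers were 8595 to 10296 CPM beside fibroblasts, against 6532 to 19529 CPM cell-free, and their part in the difference was not tested. The part of seeded cells that may have entered the core was not tested either.

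In WT cores the difference of Inhba ran the same way and did not pass. It had 34.6, 42.3, 27.9 and 28.0 CPM in WT core // fibroblasts, against 21.4, 17.7, 27.1 and 17.7 CPM in WT core // cell-free (log2 fold change 0.64 ± 0.17, edgeR adjusted p = 0.0685, exact permutation p = 0.0286, the smallest for 4 against 4). The groups did not overlap, by a margin of less than 1 CPM, and without replicate 3 of the cell-free cores Inhba was called (0.78, edgeR adjusted p = 0.0342). Of the 10 genes 0 were called in this comparison, where 2.61% of the 16188 genes tested were called, while 2 of the 10 did not overlap, against 13% of all genes tested. At an unadjusted edgeR p under 0.05 and the same limit on size the count was 1, Inhba, as it was by DESeq2. In the same comparison 12 of the 14 macrophage and leukocyte markers had negative values (median log2 fold change -0.42), with Csf1r called lower, all 9 tendon markers had positive values (median 0.43), with Scx called higher, and the endothelial marker Kdr was called lower. Their part in the difference, and that of seeded cells that may have entered the core, was not tested.

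The other gene without overlap was Tgfb2, with 56.9, 56.0, 67.9 and 68.4 CPM in WT core // fibroblasts, against 51.0, 50.4, 46.1 and 50.3 CPM in WT core // cell-free (log2 fold change 0.31 ± 0.08, edgeR adjusted p = 0.0627). In cores labelled KO it had 49.2, 44.9, 50.7 and 43.0 CPM beside fibroblasts, against 52.0, 53.1, 60.8 and 45.7 CPM cell-free, a log2 fold change of -0.19 ± 0.10 that did not pass (edgeR adjusted p = 0.541). Tgfbi was 0.54 ± 0.29 in cores labelled KO and 0.45 ± 0.21 in WT cores on the log2 scale and passed in neither (edgeR adjusted p = 0.517 and 0.255). With the run code of the titles as a block, Tgfbi was called in cores labelled KO, at 0.57 (edgeR adjusted p = 0.0493). The remaining 7 genes had log2 fold changes of -0.19 to 0.28 in cores labelled KO and of -0.25 to 0.22 in WT cores.

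**Figure D4:**
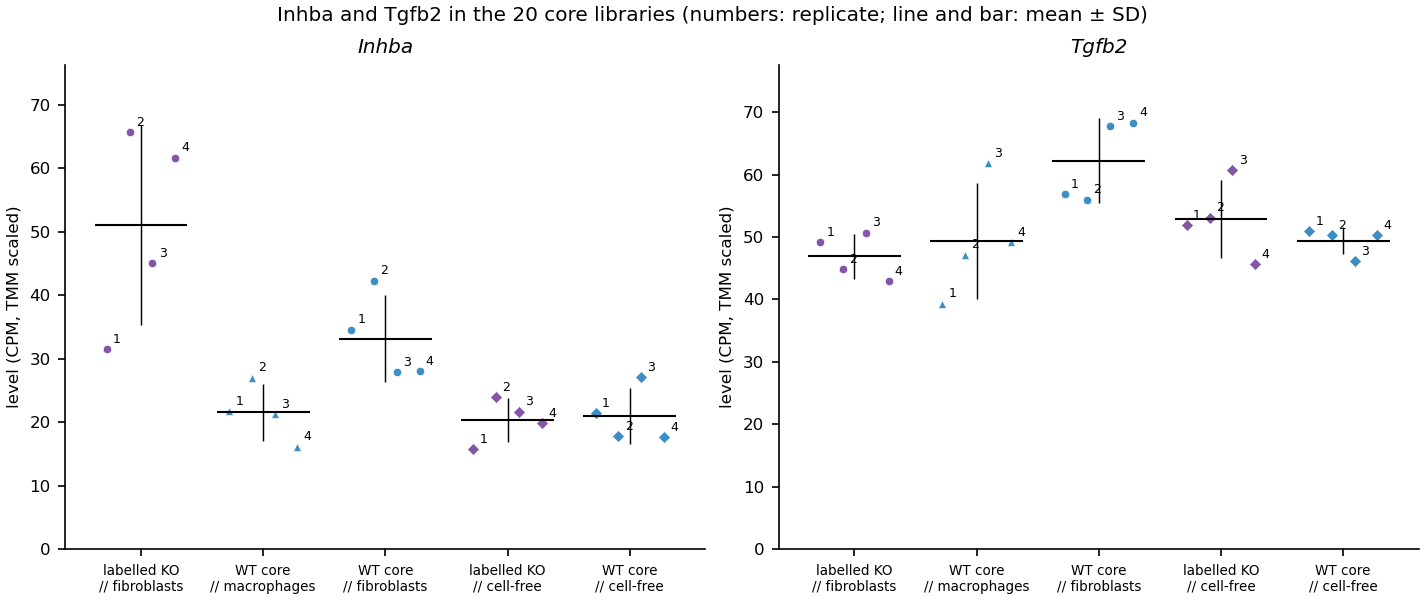
Level of Inhba and Tgfb2 in the 20 core libraries (CPM, TMM scaled; each point is 1 library with its replicate number, lines and bars are mean ± SD, n = 4 a group). Inhba is highest in cores labelled KO // fibroblasts at 31.5 to 65.7 CPM, and Tgfb2 in WT core // fibroblasts at 56.0 to 68.4 CPM.

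Beside fibroblasts, cores labelled KO had a higher level of Inhba and a lower level of Tgfb2 than WT cores before correction for the number of genes, and neither held after it. The rule of the study for this pair, an unadjusted p under 0.05 and a log2 fold change beyond 0.5, called 1 of the 10 genes, where it called 2.44% of the 16088 genes tested. At an edgeR adjusted p under 0.05 and the same limit on size, 0 of the 10 and 0% of all genes tested were called. Inhba had 31.5, 65.7, 45.0 and 61.7 CPM in cores labelled KO, against 34.6, 42.3, 27.9 and 28.0 CPM in WT cores (log2 fold change 0.62 ± 0.22, edgeR p = 0.0186, adjusted p = 0.536, exact permutation p = 0.114). Of the cores labelled KO, 3 lay above every WT core and replicate 1 lay among them, and the call ended without replicate 2 or 4 of the cores labelled KO or replicate 3 or 4 of the WT cores, at log2 fold changes of 0.47 to 0.55. In the same comparison 8 of the 9 tendon markers had negative values (median log2 fold change -0.36), of which Kera, the proteoglycan keratocan, was called lower by the same rule at -0.75, and their part in the differences was not tested.

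Tgfb2 was the 1 of the 10 genes without overlap here, against 4.61% of all genes tested. Its levels were 49.2, 44.9, 50.7 and 43.0 CPM in cores labelled KO // fibroblasts, against 56.9, 56.0, 67.9 and 68.4 CPM in WT core // fibroblasts (log2 fold change -0.40 ± 0.08, edgeR p = 0.00081, adjusted p = 0.457, exact permutation p = 0.0286), a difference under the limit on size. Tgfb3 had 96.5, 102, 92.8 and 88.6 CPM, against 116, 92.5, 128 and 118 CPM (log2 fold change -0.25 ± 0.09, edgeR p = 0.0217, adjusted p = 0.542, exact permutation p = 0.114). Tgfb1 had a log2 fold change of 0.03 with a 95% interval from -0.14 to 0.20. The receptors were between -0.04 and 0.11 and the latency proteins and Tgfbi between -0.18 and 0.07 on the log2 scale, and none passed.

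The interaction asked whether the change beside fibroblasts differed between cores labelled KO and WT cores, which the values above, sharing samples, do not answer one by one. It was -0.51 ± 0.13 for Tgfb2 and 0.67 ± 0.30 for Inhba, as differences of log2 fold changes, and both were under 0.05 in the edgeR test before adjustment. After adjustment over 16772 genes neither passed (edgeR adjusted p = 0.985 for both), and 0 of 10 genes and 0% of all genes were called.

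Cell-free cores labelled KO and WT differed in none of the 10 genes by the test, and 0% of the 16065 genes tested were called. None of the 10 was without overlap, against 1.59% of all genes tested. Inhba had 15.7, 23.9, 21.7 and 19.8 CPM in cores labelled KO, against 21.4, 17.7, 27.1 and 17.7 CPM in WT cores, a log2 fold change of -0.05 with a 95% interval from -0.39 to 0.28, and Tgfb2 was 0.10 with an interval from -0.09 to 0.29. At an unadjusted edgeR p under 0.05, 0 of the 10 passed as well, and DESeq2 called 0. Replicate 1 of the cores labelled KO stood apart in Tgfb1, at 35.5 CPM beside 60.4, 62.2 and 63.0 CPM, and in Tgfbi, at 267 CPM beside 121, 139.6 and 142 CPM, and it is the library of this group with the highest macrophage marker sum. It also has code 150 in its title. Tgfbi was highest for that code also in cores labelled KO // fibroblasts (360 CPM), WT core // cell-free (280 CPM) and WT core // fibroblasts (395 CPM). In WT core // macrophages it was lowest for that code, at 118 CPM.

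Macrophages in the hydrogel went with lower levels of 4 of the 10 genes in the core than fibroblasts did. Called lower in WT core // macrophages than in WT core // fibroblasts were Tgfbr2, Ltbp2, Inhba and Tgfbi, and none was called higher, where 10.8% of the 16370 genes tested were called, and 5.5% of all genes tested were called lower. The same 4 genes were without overlap, against 26.9% of all genes tested. Tgfbi had 118, 176, 142 and 213 CPM beside macrophages, against 395, 240.5, 261 and 236 CPM beside fibroblasts (log2 fold change -0.79 ± 0.21, edgeR adjusted p = 0.0285). Inhba had 21.7, 27.0, 21.3 and 16.1 CPM, against 34.6, 42.3, 27.9 and 28.0 CPM (log2 fold change -0.61 ± 0.17, edgeR adjusted p = 0.0344).

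Ltbp2 had 719, 1159, 1019.6 and 798 CPM beside macrophages, against 1377, 1307, 1441 and 1348 CPM beside fibroblasts (log2 fold change -0.56 ± 0.16, edgeR adjusted p = 0.0382). Tgfbr2 had 239.6, 313, 269 and 316 CPM, against 464, 403, 392 and 410.2 CPM (log2 fold change -0.54 ± 0.11, edgeR adjusted p = 0.0130). In each of the 4 genes all cores beside macrophages lay below all cores beside fibroblasts. The count of 4 fell to 0 without replicate 1 of the cores beside macrophages or without replicate 1 of those beside fibroblasts, to 1 without replicate 3 of the cores beside macrophages and to 2 without replicate 2 or 3 of those beside fibroblasts. The 9 tendon markers summed to 21386 to 37166 CPM beside macrophages, against 29489 to 59021 CPM beside fibroblasts, and their part in the difference was not tested. Nor was the part of seeded fibroblasts that may have entered the core.

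Against cell-free WT cores, 0 of the 10 genes were called beside macrophages, where 4.6% of the 16441 genes tested were called. Tgfbr2 was the 1 of 10 without overlap, against 14.8% of all genes tested, with 239.6, 313, 269 and 316 CPM beside macrophages, against 462, 365, 374 and 347 CPM cell-free (log2 fold change -0.48 ± 0.13, edgeR adjusted p = 0.0678). Without replicate 4 of the cores beside macrophages it was called, at -0.54 (edgeR adjusted p = 0.0466). Inhba was 0.00 with a 95% interval from -0.34 to 0.35 on the log2 scale. At an unadjusted edgeR p under 0.05, Tgfb1 passed besides Tgfbr2, at -0.31 ± 0.14 (edgeR p = 0.0437, adjusted p = 0.209, exact permutation p = 0.114). The share of all genes at that threshold is not given. The cores beside macrophages and those beside fibroblasts are set here against the same cell-free libraries.

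In the hydrogel compartment, the label of the core went with no called difference in the 10 genes. By the rule of the study for this pair, unadjusted p under 0.05 and log2 fold change beyond 0.5, 0 of 10 were called, where 0.755% of the 15227 genes tested were called, and 0 of 10 passed an unadjusted edgeR p under 0.05 alone, against 2.65% of all genes tested. No gene was without overlap, against 0.177% of all genes tested. Inhba had 114, 128 and 186 CPM (lowest, median and highest) in hydrogels around cores labelled KO and 105, 120.4 and 142 CPM around WT cores (log2 fold change 0.16, 95% interval from -0.08 to 0.41). Tgfb1 was -0.16, with an interval from -0.43 to 0.11. Tgfb2 had the widest interval, from -0.97 to 0.28 around -0.35, which leaves room for a difference of nearly 1 log2 unit lower and of 0.28 higher.

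The spread of Tgfb2 went with the code in the sample titles. Its means were 52.4 CPM around cores labelled KO and 84.2 CPM around WT cores for code 150, 144 and 174 CPM for code 152, and 96.7 and 111 CPM for code 154, so that the mean around cores labelled KO was the lower in all 3. What the code stands for is not stated beyond its place in the title. Tgfbi ran otherwise, with 581 and 603 CPM for code 150, 311 and 338 CPM for code 152, and 297 and 383 CPM for code 154. With replicate numbers as a block, or with the code as a block, 0 of 10 genes were called. Without replicates 1 and 5 of the hydrogels around cores labelled KO, Tgfb2 was -0.24, Inhba 0.19 and Tgfb1 -0.10 on the log2 scale, and 0 of 10 were called.

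**Figure D5:**
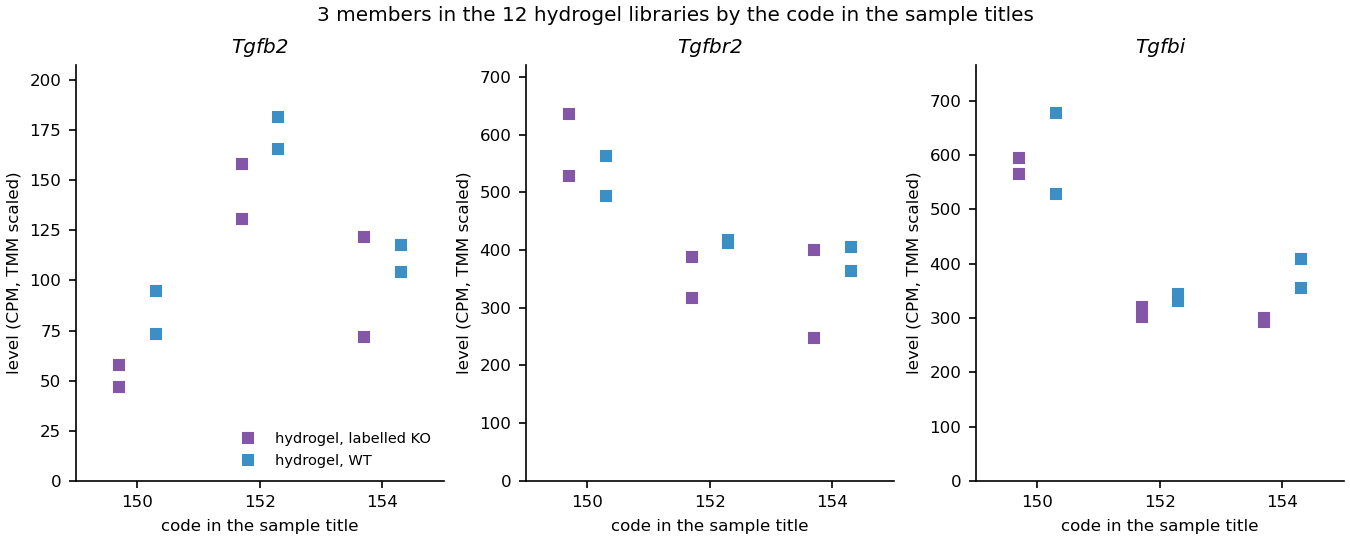
Level in the 12 hydrogel libraries (CPM, TMM scaled) by the code in the sample titles, with hydrogels around cores labelled KO left of those around WT cores in each code (points are libraries, 2 in each position). Tgfb2 is lowest for code 150 at 52.4 and 84.2 CPM on average and highest for code 152 at 144 and 174 CPM, while Tgfbi is highest for code 150.

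The rest of the pathway was read from lists of genes in the same fits. Of 18 tested genes of latency and activation outside the set, 7 were called higher and 3 lower in the hydrogel than in the core of assembloids with cores labelled KO. In WT assembloids 10 were called higher and 2 lower (median log2 fold change 0.51 in both, against 0.00 for all genes tested). The shares of all genes tested were 17% higher and 24.6% lower with cores labelled KO, and 18.1% and 24.7% in WT assembloids. Thbs1, thrombospondin-1, an activator of latent TGF-β, averaged 3218.5 ± 703 CPM in hydrogels around WT cores, against 428 ± 155 CPM in their cores (SD, n = 6 and 4; log2 fold change 2.86 ± 0.26). The integrin subunits Itgb3 (1.54) and Itgav (0.79) and the elastic fibre protein Emilin1 (0.65) were also higher there on the log2 scale. In assembloids with cores labelled KO, Thbs1 was 2.92, the membrane protease Mmp14 1.22 and Itgav 0.77, while the latent TGF-β binding protein Ltbp4 was lower at -0.77. Genes named for a single kind of assembloid are so by rank of p, and the interaction of compartment and label called 0% of all genes tested. In WT core // macrophages against WT core // fibroblasts, where 10.8% of all genes tested were called, 1 of the 18 was called higher, Thbs1 at 1.33. Called lower were 4: the gelatinases Mmp9 (-0.99) and Mmp2 (-0.88), the fibrillin Fbn1 (-0.64) and Itgb3 (-0.55). In WT core // fibroblasts against WT core // cell-free, Mmp9 (1.43), Mmp2 (0.97) and Fbn1 (0.63) were called higher on the log2 scale. The integrin subunit Itgb8 was higher in cores labelled KO than in WT cores beside fibroblasts by unadjusted p, at 0.53.

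Of 12 SMAD genes, 3 were called higher and 1 lower in the hydrogel in both kinds of assembloid, a share below the 41.6% of all genes tested that were called with cores labelled KO and the 42.8% in WT assembloids. The inhibitory Smad7 averaged 36.3 ± 3.75 CPM in hydrogels around WT cores, against 10.7 ± 1.24 CPM in their cores (log2 fold change 1.70 ± 0.10), Smad6, also inhibitory, was 1.68 and the feedback gene Pmepa1 0.53 on the log2 scale, while Smad3, an effector, was lower at -1.13. With cores labelled KO the values were 1.42, 1.43, 0.57 and -1.05. Smad7, Smad6 and Pmepa1 are themselves induced by TGF-β or by the related bone morphogenetic proteins. In the other 7 comparisons of 2 groups 0 of the 12 were called.

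Among 17 genes that TGF-β is known to induce, 8 were called higher and 1 lower in hydrogels around cores labelled KO than in their cores (median log2 fold change 0.39). In WT assembloids 8 were called higher and 2 lower (median 0.27), with Scx among the lower at -1.15. Of all genes tested, 17% were called higher and 24.6% lower with cores labelled KO, and 18.1% and 24.7% in WT assembloids. Tagln, an actin-binding protein of contractile cells, was 2.99 and 3.41, Postn, the matrix protein periostin, 3.01 and 2.97, and the protease inhibitor Timp1 1.52 and 1.55 on the log2 scale in assembloids with cores labelled KO and in WT assembloids. Acta2, smooth muscle actin, was 3.07 in those with cores labelled KO, and the growth factor Ccn2 was 2.06 in WT assembloids. That each is named for a single kind of assembloid follows from the rank of p and marks no tested difference between the kinds. In WT core // macrophages against WT core // fibroblasts 5 of the 17 were called lower and 0 higher (median -0.70), where 5.5% of all genes tested were called lower. The 5 were Postn at -1.59, Fn1 at -1.41, Timp1 at -1.32, Cthrc1 at -1.16 and the tendon transcription factor Scx at -1.04. In WT core // fibroblasts against WT core // cell-free, where 2.61% of all genes tested were called, 2 were called higher, the collagen gene Col3a1 at 1.09 and Scx at 0.94. In cores labelled KO 1 was called, Acta2, lower beside fibroblasts at -1.23, where 0.432% of all genes tested were called. Between cores labelled KO // fibroblasts and WT core // fibroblasts, by unadjusted p, Cthrc1 (-0.57) and Acta2 (-0.56) were lower, and between the hydrogels Eln (-0.92) was.

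Of 12 tested receptors and activin genes outside the set, 3 were called higher and 1 lower in hydrogels around WT cores than in their cores, a share below the 42.8% of all genes tested. Fst, the activin antagonist follistatin, averaged 22.1 ± 5.32 CPM in the hydrogels, against 8.42 ± 2.62 CPM in the cores (log2 fold change 1.34 ± 0.23). Eng (0.91), a co-receptor, and Bambi (1.04), a decoy receptor, were higher and Inha (-1.87), the inhibin subunit, lower on the log2 scale. With cores labelled KO these were 1.49 for Fst, 0.54 for Eng, 1.07 for Bambi and -1.89 for Inha, and the activin receptor Acvr2b was lower too, at -1.01. Inhbb, the other activin subunit, and Acvr2b were called higher in WT core // macrophages than in WT core // fibroblasts, at 1.18 and 0.82, where Inhba was lower. Inhbb was also higher in cores labelled KO than in WT cores beside fibroblasts by unadjusted p, at 0.70, and Gdf11 was higher beside fibroblasts than cell-free in WT cores, at 1.01. Of the 5 proteoglycans that bind TGF-β, Dcn and Fmod were lower in the hydrogel of WT assembloids (-1.07 and -1.46) and Aspn higher (0.92), with Dcn and Fmod at -0.64 and -1.52 with cores labelled KO, and Bgn and Aspn were lower beside macrophages than beside fibroblasts (-0.86 and -1.43).

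Over the 20 core libraries, the genes whose level followed each of the 10 most closely were sought among 12036 genes by Pearson correlation of log2 CPM, as a description, since the libraries share groups and scaling. Inhba ran closest with Tspan11 (r = 0.91), Man2a1 (0.91) and Pcbp3 (0.90). Tgfb1 ran closest with Mrtfb (0.90), Ankrd52 (0.87) and Gse1 (0.84), Tgfb2 with Pi4kb (0.80), Alg2 (0.79) and Vstm4 (0.78), and Tgfb3 with Fzd8 (0.85), Itgb5 (0.84) and Sema3b (0.84). For 2 of the receptors these were Zfp81 (0.86), Ints13 (0.84) and Zbtb43 (0.83) with Tgfbr1 and Fbln1 (0.88), Adamts5 (0.87) and Foxn3 (0.84) with Tgfbr3. Ltbp1 ran closest with Serpinf1 (0.84), Vit (0.82) and Galnt4 (0.80), Ltbp2 with Prep (0.85), Kpnb1 (0.85) and Myh9 (0.84), and Tgfbi with Ndfip2 (0.89), Esyt2 (0.87) and Avpi1 (0.87). No member was among the 3 nearest genes of another member.

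Some reads of these genes may belong to neighbours that share exon bases with them. For neighbours on the opposite strand this depends on the strand setting of the counting, which was not given in the sources used here. In GENCODE M21, Tgfbr3 shares 297 exon bases, 4.54% of its own, with Gm43422 on the same strand, and Tgfb3 shares 163 bases, 4.82% of its own, with Gm37804 on the opposite strand. These neighbours had medians of 56.4 and 9.72 CPM on the library totals over the 32 libraries. On the opposite strand, Ltbp2 also shares 764 exon bases (9.34%) with D030025P21Rik, Tgfb3 257 (7.60%) with Gm48008 and Tgfb2 124 (2.14%) with Gm29491, and these neighbours were not analysed here.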

How the data were processed

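Each library was stranded total RNA after ribosomal depletion (Ribo-Zero). The deposited values are estimated counts per gene, made by the authors with kallisto 0.46.1 on the mouse build GRCm39, per the submitters' processing notes. The annotation release and the strand setting of the counting are not given in the sources used here. Estimated counts were cut to whole numbers by dropping any decimals. They were tested with the quasi-likelihood test of edgeR 4.0.16 in R 4.3.3 on the 2 groups compared, or on the 4 groups of an interaction (filterByExpr, TMM scaling, Benjamini-Hochberg over all genes tested). A gene was called at an unadjusted p under 0.05 and a log2 fold change beyond 0.5 for cores labelled KO against WT cores beside fibroblasts and for their hydrogels, the rule of the study, and at an adjusted p under 0.05 with the same size elsewhere. Where an unadjusted p stands without a share of all genes, the members have no background to be read against. The 95% intervals are the log2 fold change ± 1.96 SE, a normal approximation that is narrow for so few libraries. Simulated independent libraries were fitted for hydrogels labelled KO over WT, WT cores beside macrophages over fibroblasts and hydrogel over core in WT assembloids. No other comparison and no interaction was simulated, and the share of changes recovered is not reported here.

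Single genes were also tested by two-sided exact permutation of mean log2 CPM (prior count 2), in 90 tests over 9 comparisons, 22 of them under 0.05 without adjustment. Core explants came from 1 mouse each, whereas hydrogels shared seeded cells, so p-values measure the spread between these libraries. Replicate numbers were checked by the correlation of deviations from group means. Every pair was above 0.1 between the hydrogels (0.26 to 0.60), in cores labelled KO beside fibroblasts and cell-free (0.21 to 0.39), in WT cores beside macrophages and cell-free (0.19 to 0.34) and beside macrophages and fibroblasts (0.17 to 0.25). Hydrogels and cores that share a title code and number gave 0.23 to 0.42 where labelled KO and 0.23 to 0.32 where WT. The other comparisons were not paired by number.

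All 10 genes are named in each comparison. From each pathway list, up to 4 called genes with the lowest p are named, or all where 5 or fewer were called. The likeness search took 3 genes a member with a mean log2 CPM of at least 1, and its result for Tgfbr2 is not reported here. Members and lists were chosen with earlier results of these data known. GENCODE M21 and RefSeq, both on GRCm38, gave names, lengths, overlaps and start regions only. Alternatives were DESeq2 1.42.0, RLE scaling, other filters and thresholds, blocks by replicate or title code, all 5 core groups in 1 fit and leaving out each library.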

Additional observations from a re-analysis of the deposited data

Results flagged for a closer look

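In 6 of the 70 sets of libraries formed by a member and a group, 1 library stood far from the others of its group, where chance gives about 1 in 20. Tgfb1 was at 35.5 CPM in replicate 1 of cores labelled KO // cell-free, with the others at 60.4 to 63.0 CPM, and Tgfbi was at 267 CPM in the same library, with the others at 121 to 142 CPM. Tgfbi was also at 395 CPM in replicate 1 of WT core // fibroblasts, with the others at 236 to 261 CPM. Both libraries have title code 150, the code with the highest Tgfbi in every group but WT core // macrophages. Ltbp1 was at 163 CPM in replicate 2 of WT core // fibroblasts, with the others at 215 to 226 CPM, and Tgfb2 was at 46.1 CPM in replicate 3 of WT core // cell-free, with the others at 50.3 to 51.0 CPM. Tgfbr1 was at 134 CPM in replicate 1 of the hydrogels around cores labelled KO, with the others at 72.2 to 94.4 CPM.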

How the results depend on the processing

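Of 2080 alternative values of the 110 log2 fold changes of the members, 2026 kept their side of the threshold, among them 117 that had no call in either setting and changed sign. A further 38 kept their direction and lost the call, 16 gained it, and 0 reversed.

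The count of members called in cores labelled KO over WT cores beside fibroblasts, 1, was 3 with no fold change threshold, 0 with the adjusted p threshold and 0 to 1 when single libraries were left out. The share of all genes called without that fold change threshold is not given. The count for WT cores beside fibroblasts over cell-free, 0, was 1 by DESeq2, with no filter on low counts and with the unadjusted p threshold, each time Inhba, and 0 to 1 when libraries were left out. For cores labelled KO beside fibroblasts over cell-free, the count of 1 was 2 with the run code of the titles as a block, which added Tgfbi (0.57 on the log2 scale, edgeR adjusted p = 0.0493), and 0 to 1 when libraries were left out. For WT cores beside macrophages the count was 0 to 1 over cell-free and 0 to 4 over fibroblasts when libraries were left out, and 2 over fibroblasts with all 5 core groups in 1 fit. For hydrogel over core, leaving out single libraries gave a count of 4 to 6 with cores labelled KO and of 5 to 6 in WT assembloids. Hydrogels labelled KO over WT, cell-free cores labelled KO over WT and both interactions had a count of 0 under every alternative.

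With the replicate block, that is with paired libraries as a block, Tgfbi gained its call in hydrogel over core with cores labelled KO, at 0.55, for a count of 6, and lost it in WT assembloids, at 0.42, for a count of 5. The block changed no other call: the counts were 1 for cores labelled KO beside fibroblasts over cell-free and 4 for WT cores beside macrophages over fibroblasts. Leaving out replicates 1 and 5 of the hydrogels labelled KO, an alternative chosen after seeing the data, changed no call. Of 70 group mean levels, 5 moved by more than 1 SD when taken on library totals without scaling. With 4 libraries in most groups, a gene that did not pass may still differ by any amount within its printed interval.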
